A study of Rattus norvegicus with 14 samples.

Results

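Calcineurin, protein phosphatase 1 (PP1) and protein phosphatase 2A (PP2A) are the main serine/threonine phosphatases of the synapse, and 9 genes of their catalytic subunits, regulatory subunits and inhibitors were followed in the CA3 field of the rat hippocampus. All probe sets that the platform annotation of the array assigns to 1 of these genes alone were taken, which gave 12 of the 15923 probe sets on the array, for 9 of its 10411 named genes. The rats were young male Long-Evans animals of 3 to 4 months that had all learned a standard water maze 2 to 3 weeks earlier. The 7 rats of the learning group ("Learning Activated") swam 8 trials, 8 min apart, in a new maze with spatial cues and a visible platform that kept its place. The 7 control rats swam as many trials with a visible platform that moved and without informative cues, so new place learning, cues and platform movement cannot be told apart. Each rat had a 90 s probe trial 1 h later, after which CA3 was microdissected and its RNA hybridised to 1 Affymetrix RAE230A array per biological replicate.

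Calcineurin is switched on by calcium and calmodulin. It removes phosphate from inhibitor-1 and DARPP-32, which blocks them as inhibitors of PP1, so that a modest calcium signal can activate PP1 as well. PP1 and PP2A then oppose the kinases of long-term potentiation and take part in long-term depression and in limiting memory storage. Because 3 of the genes encode parts of calcineurin itself, 2 encode PP1 catalytic subunits, 2 encode PP1 inhibitors and 2 encode PP2A subunits, the results follow that order.

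The promoters of 3 members are given first, since they hold matches to the cAMP response element (CRE), the binding site of the activity-regulated factor CREB. Ppp3cb and Ppp3r1 are the genes with a called probe set. Ppp2ca is the only one with the full CRE among the 7 members whose promoter could be read. The sequences are from RefSeq, assembly GRCr8, and run from 250 bases before to 50 bases after the annotated start of the gene. They are at chr15:3809012-3809311 (+) for Ppp3cb, chr14:95769596-95769895 (+) for Ppp3r1 and chr10:36858787-36859086 (+) for Ppp2ca. Capitals mark the CRE core TGACG on either strand, and inside the full site TGACGTCA a core of each strand overlaps the other.
Ppp3cb: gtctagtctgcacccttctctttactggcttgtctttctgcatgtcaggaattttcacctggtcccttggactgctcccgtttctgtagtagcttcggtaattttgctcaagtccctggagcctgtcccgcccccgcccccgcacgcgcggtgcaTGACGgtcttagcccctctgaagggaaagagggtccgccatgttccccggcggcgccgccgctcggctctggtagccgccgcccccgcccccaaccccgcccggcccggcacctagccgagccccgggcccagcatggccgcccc
Ppp3r1: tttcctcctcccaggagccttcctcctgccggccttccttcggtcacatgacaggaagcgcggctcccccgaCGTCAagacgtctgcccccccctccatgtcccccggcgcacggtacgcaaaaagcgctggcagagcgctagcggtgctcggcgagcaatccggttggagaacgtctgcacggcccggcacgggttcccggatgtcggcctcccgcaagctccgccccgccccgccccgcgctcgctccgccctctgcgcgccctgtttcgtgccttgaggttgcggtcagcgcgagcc
Ppp2ca: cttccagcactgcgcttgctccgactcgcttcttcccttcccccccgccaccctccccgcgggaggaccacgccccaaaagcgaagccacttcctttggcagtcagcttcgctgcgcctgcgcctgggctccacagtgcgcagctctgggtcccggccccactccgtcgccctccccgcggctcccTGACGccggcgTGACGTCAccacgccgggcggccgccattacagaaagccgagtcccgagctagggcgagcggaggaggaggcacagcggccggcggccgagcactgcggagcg
Of the 9 genes 7 had a promoter in the RefSeq table, and Ppp1r1a and Ppp1r1b were not matched. The core was also found in 1 of the 3 annotated promoters of Ppp2r2b and was not found in these windows of Ppp3ca, Ppp1ca and Ppp1cc. Among 33469 promoters of the same length 21.2% held the core and 1.83% the full site. A match describes the letters of the window and was not tested as a binding site.

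Across the arrays, pairwise correlations over tested probe sets ran from 0.983 to 0.995. The lowest mean correlations with the others belonged to control replicate 5 and learning replicates 4 and 6. Without these 3 arrays both called members stayed called, at log2 fold changes of 0.37 for Ppp3cb (limma adjusted p = 0.0325) and 0.50 for Ppp3r1 (limma adjusted p = 0.0369). The CA3 markers Bok, Grik4 and Chgb were above the dim filter and none was called (exact permutation p of their mean = 0.643). All 4 CA1 markers were above it as well, and none was called (exact permutation p = 0.603). Of 6 choroid plexus markers 2 were above it, and Ttr was called lower in the learning group. The mean of these 2 was 5.84 ± 0.41 in learning and 7.24 ± 0.85 in control arrays (exact permutation p = 0.00175). Of 4 excitatory neuron markers 3 were measured. Their mean was 11.33 ± 0.10 in learning and 10.99 ± 0.15 in control arrays (exact permutation p = 0.000583). Among them Camk2a was called higher with a log2 fold change of 0.76, while Slc17a7 (0.14) and Nrgn (0.12) were not called. Fold changes are on the log2 scale throughout, unless given as a linear fold or with the ending -fold. The part of these lists in the calcineurin values was not tested.

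The 12 probe sets all lay above the filter on dim signals, a mean log2 level of 3.88, and all were tested. With limma across 9520 probe sets, 2 of the 12 were called higher in the learning group at an adjusted p under 0.05 and 0 were called lower. Over all tested probe sets 2.55% were called higher and 0.798% lower, 3.35% together. At an unadjusted p under 0.05, 4 of the 12 were higher and 2 lower, where all tested probe sets gave 9.34% and 10.6%, or 19.9% together. Both called members were probe sets of calcineurin, Ppp3cb and Ppp3r1, and in both the groups did not overlap, which held in this direction for 1.73% of all tested probe sets (2.10% in either direction). All 6 calcineurin probe sets had a log2 fold change above 0, with a median of 0.13, while 4 of the 6 PP1 and PP2A probe sets lay below 0, with a median of -0.082. These classes differ in make-up, since only the 3 calcineurin genes had a second, dimmer probe set. At their brighter probe sets the changes were 0.062 to 0.077. Over 1130 dimmer probe sets of all genes, 70.1% shifted upward against the brightest of the same gene. The median over all tested probe sets was -0.017, and 42.0% of them lay above 0. Over the 12 members together the median was 0.045.

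**Figure D1:**
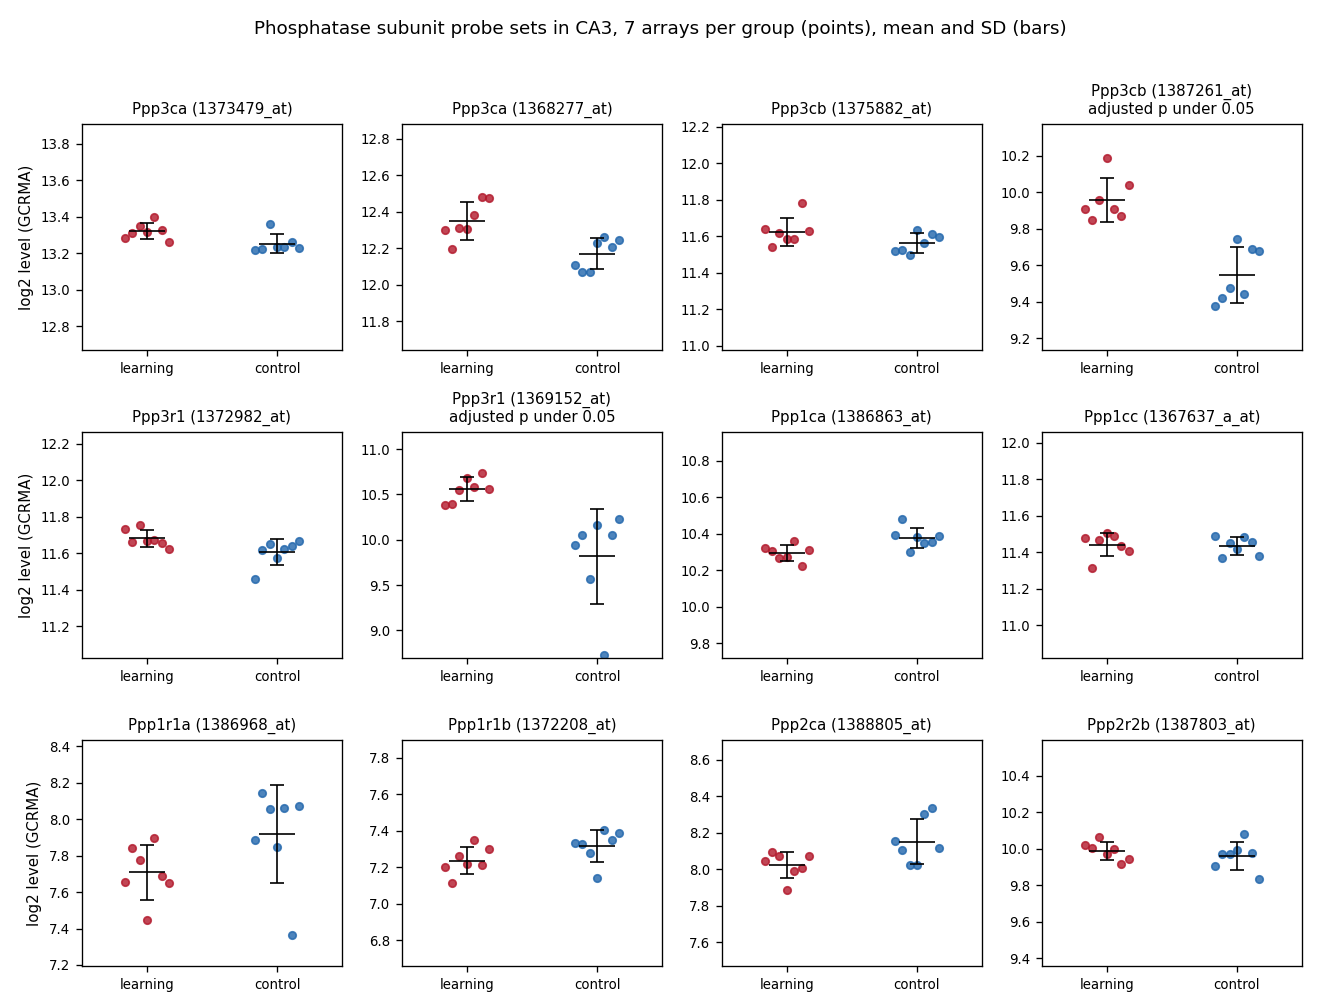
Log2 levels (GCRMA, vertical axis) of the 12 phosphatase probe sets in each of the 7 learning and 7 control arrays (points), with mean and SD (bars). Each panel has its own range, and that of Ppp3r1 1369152_at is wider than the others. The groups are apart at Ppp3cb 1387261_at and Ppp3r1 1369152_at and overlap at the other 10.

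Ppp3cb encodes the beta form of the calcineurin catalytic subunit. At probe set 1387261_at its log2 level ran from 9.85 to 10.19 with a median of 9.91 in learning rats, against 9.37 to 9.74 with a median of 9.48 in control rats. Every learning animal was above every control animal. The means were 9.96 ± 0.12 and 9.55 ± 0.15 (SD, n = 7 each), and the gene rose there by a log2 fold change of 0.41 (95% interval 0.26 to 0.56, 1.33-fold, limma adjusted p = 0.00581). Its other probe set, 1375882_at, is the brighter one and was not called. There the level ran from 11.54 to 11.78 with a median of 11.62 in learning rats and from 11.50 to 11.63 with a median of 11.56 in control rats, and the groups overlapped. The fold change at that probe set was 0.062 (95% interval -0.021 to 0.15, limma adjusted p = 0.398).

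Ppp3r1 encodes calcineurin B, the calcium-binding regulatory subunit that the catalytic subunits need for activity. At probe set 1369152_at its log2 level ran from 10.38 to 10.74 with a median of 10.57 in learning rats, against 8.73 to 10.23 with a median of 10.05 in control rats. The groups did not overlap, and the control rats were spread far more widely, with an SD of 0.53 around a mean of 9.82 against 0.13 around 10.56 in learning rats. The gene rose there by 0.74 on the log2 scale (95% interval 0.35 to 1.14, 1.67-fold, limma adjusted p = 0.0423). The lowest control value, 8.73, came from control replicate 5, the array with the highest 3'/5' signal ratio of all for each of the control genes Gapdh, beta-actin and hexokinase. These ratios are used to judge the integrity of RNA. Fits of the group difference with the Gapdh or the hexokinase ratio as covariate are given below. The part of the ratios in this lowest value was not tested. Without that array the fold change was 0.56 (adjusted p = 0.00657).

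The call of Ppp3r1 was close to the threshold. It was lost when control replicate 1, 2 or 3 or any 1 of the 7 learning arrays was left out, with fold changes of 0.70 to 0.78 and limma adjusted p-values of 0.0521 to 0.0844. Its brighter probe set, 1372982_at, had a log2 level of 11.62 to 11.75 with a median of 11.67 in learning rats and of 11.46 to 11.67 with a median of 11.62 in control rats. The groups overlapped, although all 7 learning animals lay above the control mean. The fold change there was 0.077 (95% interval -0.0019 to 0.16, limma adjusted p = 0.263).

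Ppp3ca encodes the alpha form of the catalytic subunit, the main one of forebrain neurons. Its probe set 1368277_at had a log2 level of 12.20 to 12.48 with a median of 12.31 in learning rats, against 12.07 to 12.26 with a median of 12.21 in control rats. Of the 7 learning animals 6 lay above the highest control. The fold change was 0.18 (95% interval 0.071 to 0.29, 1.13-fold) and did not pass (limma adjusted p = 0.0683). It passed without learning replicate 2 (0.21, adjusted p = 0.0402) and with trended variance moderation (adjusted p = 0.0465). The brighter probe set 1373479_at was among the brightest 0.21% of the tested probe sets and had 13.26 to 13.40 with a median of 13.32 in learning rats, and 13.22 to 13.36 with a median of 13.23 in control rats. Its fold change was 0.070 (95% interval 0.00035 to 0.14, limma adjusted p = 0.249).

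**Figure D2:**
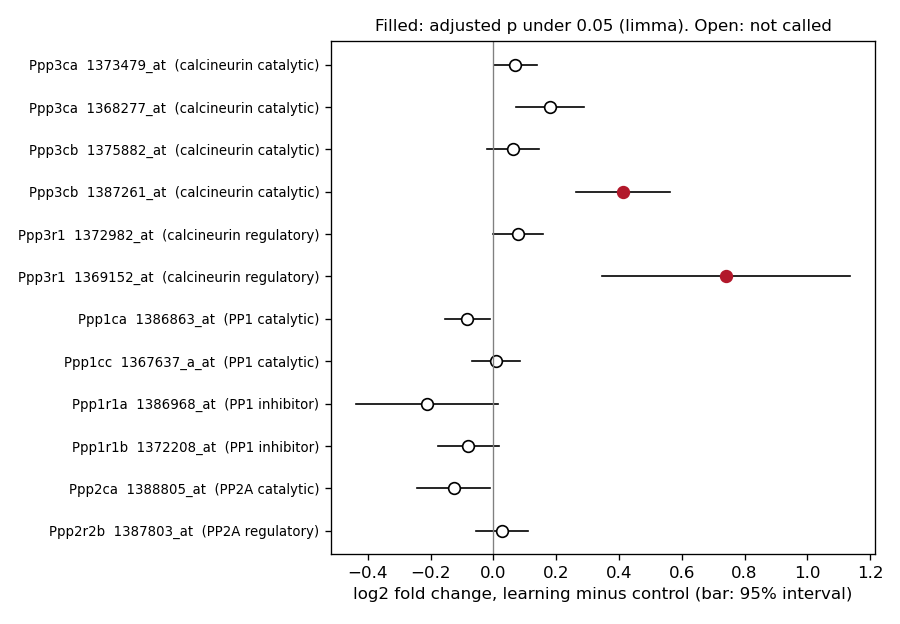
Log2 fold change, learning minus control (horizontal axis), of the 12 probe sets with 95% intervals from limma, ordered by the role of the gene. The filled points, Ppp3cb 1387261_at at 0.41 and Ppp3r1 1369152_at at 0.74, passed the adjusted threshold, and the 6 probe sets of PP1 and PP2A genes lie between -0.21 and 0.027.

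In each calcineurin gene the larger change was at the dimmer of its 2 probe sets. In all 3 genes the annotation ties the dimmer probe set to a RefSeq mRNA. The brighter one is tied to a sequence outside RefSeq, an expressed sequence tag (EST) or other mRNA. The difference between the probe sets was tested by taking the dimmer minus the brightest log2 level of the same gene on each array, for all 1130 such pairs. For Ppp3cb this difference ran from -1.91 to -1.40 with a median of -1.68 in learning rats and from -2.14 to -1.89 with a median of -2.02 in control rats, and 6 of 7 learning animals lay above the highest control. It was 0.35 higher in the learning group (95% interval 0.19 to 0.51, limma adjusted p = 0.00702). For Ppp3r1 it ran from -1.35 to -0.91 with a median of -1.09 in learning rats and from -2.90 to -1.41 with a median of -1.57 in control rats, with no overlap. It was 0.66 higher (95% interval 0.26 to 1.07, limma adjusted p = 0.0247), and with control replicate 3 left out, or learning replicate 4 or 6, the adjusted p was 0.0506 to 0.0517, at 0.61 to 0.64. For Ppp3ca it was 0.11 higher and did not pass (95% interval -0.034 to 0.25, limma adjusted p = 0.264).

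Such a shift was common on these arrays. Of all 1130 pairs 14.7% were called higher and 2.92% lower, with a median of 0.092, and 9.47% of the dimmer probe sets were themselves called higher and 0.0885% lower. The calcineurin arrangement is a dimmer RefSeq probe set and a brightest one tied to an EST or other mRNA. Among 153 pairs of other genes with it, the median was 0.17 and 22.9% were called higher. In the 82 pairs of the opposite arrangement the median was 0.012 and 7.32% were called higher. In 37 pairs with both probe sets tied to RefSeq the median was 0.14 and 13.5% were called higher. In 855 pairs with neither tied to RefSeq these were 0.081 and 13.8%. The shares called lower were 0.654%, 4.88%, 0% and 3.27%, in the order given.

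**Figure D3:**
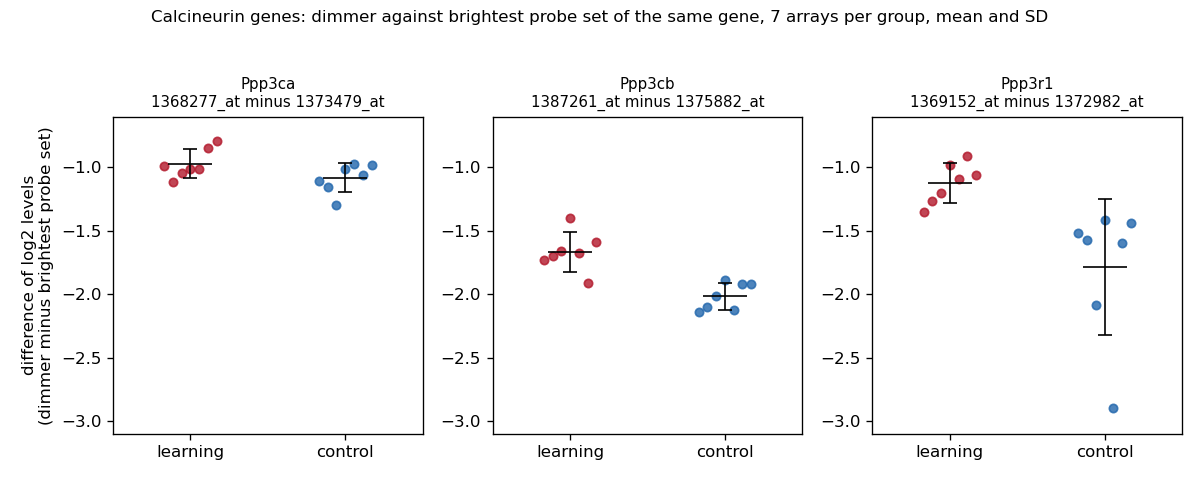
Difference of log2 levels between the dimmer and the brightest probe set of the same calcineurin gene (vertical axis), for each learning and control array (points), with mean and SD (bars). Ppp3r1 separates the groups, Ppp3cb has 1 learning array within the control range, and Ppp3ca overlaps widely.

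A measure of this shift per array, the mean of the dimmest minus the brightest probe set over 350 other genes with a gap of 2 or more log2 units between those probe sets, did not overlap between the groups either. It ran from -3.30 to -3.20 in learning arrays and from -3.65 to -3.34 in control arrays. The level of Ppp3r1 at 1369152_at followed it within both groups, with Pearson r = 0.86 in learning arrays (exact permutation p = 0.0165, adjusted p = 0.0494; Spearman rho = 0.79, exact p = 0.0480, adjusted p = 0.144; n = 7). In control arrays r was 0.98 (exact permutation p = 0.00337, adjusted p = 0.0202; rho = 0.93, exact p = 0.00675, adjusted p = 0.0405; n = 7). Without the 2 arrays farthest from the median of the balance, r was 0.61 in learning and 0.60 in control arrays. For Ppp3cb at 1387261_at r was 0.38 in learning arrays (exact permutation p = 0.408, adjusted p = 0.489; rho = 0.29, exact p = 0.556, adjusted p = 0.662) and 0.46 in control arrays (exact permutation p = 0.312, adjusted p = 0.468; rho = 0.54, exact p = 0.236, adjusted p = 0.354), and 0.89 and 0.74 without the 2 farthest arrays. For Ppp3ca at 1368277_at r was 0.49 in learning arrays (exact permutation p = 0.263, adjusted p = 0.468; rho = 0.57, exact p = 0.200, adjusted p = 0.354) and -0.24 in control arrays (exact permutation p = 0.782, adjusted p = 0.782; rho = 0.21, exact p = 0.662, adjusted p = 0.662), and 0.18 and 0.91 without the 2 farthest. These were the 6 relations computed.

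With this balance as a covariate Ppp3r1 had a log2 fold change of -0.035 (limma adjusted p = 0.922), Ppp3cb one of 0.29 (adjusted p = 0.436) and Ppp3ca at 1368277_at one of 0.19 (adjusted p = 0.524). No member was called in that fit, nor any of the 9520 probe sets, of which 853 had an unadjusted p under 0.05, 3 of them members with a positive fold change (4.77% of all probe sets were higher and 4.19% lower). Balance and group cannot be told apart in these arrays, because their values do not overlap. The Gapdh 3'/5' ratio was taken on the log2 scale, as the 3' minus the 5' log2 level. It averaged 0.45 ± 0.05 in learning and 0.51 ± 0.06 in control arrays (exact permutation p = 0.0443). With this ratio as the covariate the log2 fold changes were 0.40 for Ppp3cb (limma adjusted p = 0.0590) and 0.49 for Ppp3r1 (limma adjusted p = 0.259), so that 0 members were called. Before adjustment 3 members were higher and 1 lower there (limma p under 0.05), where all probe sets gave 7.13% and 6.91%. The adjusted calls over all probe sets numbered 39 in that fit, against 319 without the covariate. With the hexokinase ratio both stayed called, at 0.40 (adjusted p = 0.0134) and 0.53 (adjusted p = 0.0109).

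**Figure D4:**
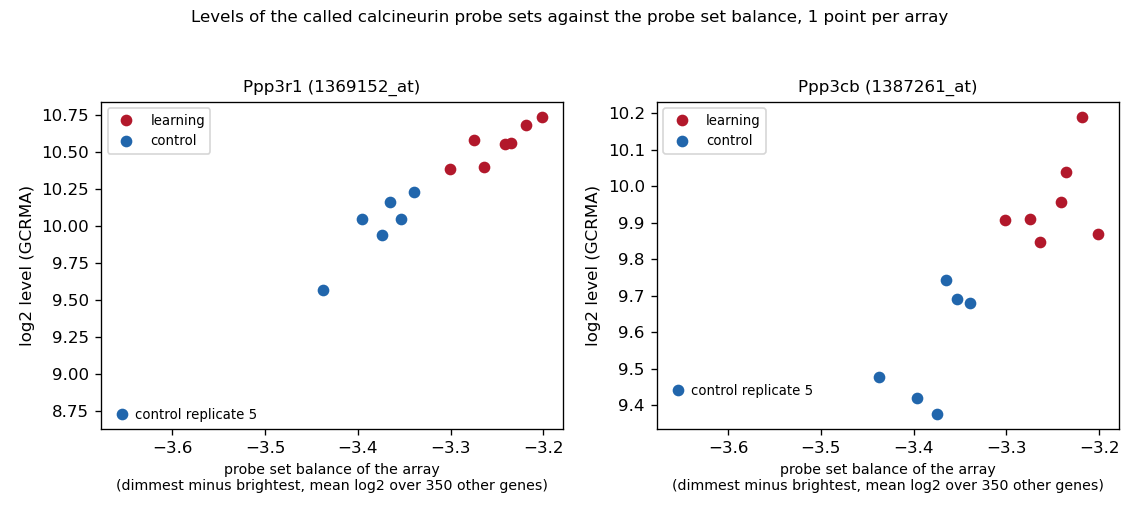
Log2 level of the 2 called calcineurin probe sets (vertical axis) against the balance between dimmest and brightest probe sets of 350 other genes on the same array (horizontal axis, mean log2 difference), 1 point per array. Ppp3r1 climbs with the balance in both groups, with control replicate 5 lowest on both axes, and Ppp3cb climbs less regularly.

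PP1 catalytic subunits did not pass. Ppp1ca, the alpha form, had log2 levels of 10.23 to 10.36 with a median of 10.31 in learning rats and of 10.30 to 10.48 with a median of 10.38 in control rats. All 7 learning animals lay below the control mean, although the ranges overlapped. The fold change was -0.083 (95% interval -0.15 to -0.012, limma adjusted p = 0.180). Ppp1cc, the gamma form that is enriched in dendritic spines, had 11.32 to 11.50 with a median of 11.47 in learning rats and 11.37 to 11.49 with a median of 11.45 in control rats. The fold change was 0.0074 (limma adjusted p = 0.933), and its 95% interval of -0.069 to 0.084 is a linear fold of 0.953 to 1.06. Its sign turned in some of the alternative fits.

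The PP1 inhibitors were lower in most learning animals without passing the test. Ppp1r1a encodes inhibitor-1, which blocks PP1 after phosphorylation by protein kinase A. Its level was 7.44 to 7.90 with a median of 7.69 in learning rats and 7.36 to 8.14 with a median of 8.06 in control rats, so that all 7 learning animals lay below the control mean while the lowest single value was a control. The fold change was -0.21 (95% interval -0.44 to 0.016, limma adjusted p = 0.286). That lowest value, 7.36, belonged to control replicate 6, and without this array Ppp1r1a was called lower (-0.30, adjusted p = 0.0364). Ppp1r1b encodes DARPP-32, the related inhibitor known from dopamine signalling in the striatum. It had 7.11 to 7.35 with a median of 7.22 in learning rats and 7.14 to 7.41 with a median of 7.33 in control rats, with a fold change of -0.080 (95% interval -0.18 to 0.017, limma adjusted p = 0.351).

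DARPP-32 is abundant in striatal medium spiny neurons and present in dentate granule cells, so markers of both were read beside it. Of 8 striatal markers 7 were on the array and 3 above the dim filter, Pde10a, Penk and Rgs9, while the dopamine receptors Drd1 and Drd2, Adora2a and Tac1 were below it. The summed linear level of these 3 was 794 to 1206 in learning arrays and 615 to 935 in control arrays. That sum is weighted to Pde10a, the brightest of them. The log2 fold changes were 0.31 for Pde10a, -0.29 for Penk and 0.011 for Rgs9, and none was called. Their mean log2 level was 7.05 in learning and 7.04 in control arrays (exact permutation p = 0.858), so no common shift was seen. Of 7 dentate markers 3 were on the array and only Prox1 was above the filter, at a linear level of 26.9 to 42.6 in learning and 27.8 to 73.8 in control arrays, with Dsp and Tdo2 below it. With the dentate marker level, that of Prox1 alone, as a covariate the log2 fold change of Ppp1r1b was -0.062 (limma adjusted p = 0.522). The striatal marker level was not fitted, and the part of striatal cells in the value of Ppp1r1b was not tested. In tissue of mixed cells, fewer cells of a type and less RNA per cell cannot be told apart.

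Neither PP2A gene passed. Ppp2ca encodes the alpha form of the catalytic subunit, and its promoter is the one with the full CRE among the member promoters that could be read. Its level at 1388805_at was 7.89 to 8.10 with a median of 8.05 in learning rats and 8.02 to 8.34 with a median of 8.12 in control rats. All 7 learning animals lay below the control mean. The fold change was -0.13 (95% interval -0.24 to -0.011, limma adjusted p = 0.206). A brighter probe set, 1398790_at, is annotated to Ppp2ca and Ppp2cal1 together and therefore stays outside the 12. It averaged 10.83 ± 0.02 in learning and 10.82 ± 0.05 in control rats, a difference of 0.010 (95% interval -0.053 to 0.074, limma adjusted p = 0.888). Ppp2r2b encodes a regulatory B subunit that is enriched in neurons. It had 9.92 to 10.07 with a median of 9.999 in learning rats and 9.83 to 10.08 with a median of 9.97 in control rats, with a fold change of 0.027 (95% interval -0.056 to 0.11, limma adjusted p = 0.752).

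Other genes of these enzymes were read at their brightest probe set, where 1.59% of 6836 genes were called higher and 0.980% lower (2.57% together) and the median fold change was -0.027. Before adjustment 6.33% of these genes were higher and 12.3% lower. The members themselves gave 0 calls among 9 genes there, where 1 was higher and 2 were lower before adjustment, and a median of 0.0074. Of 71 further genes of phosphatases and their regulators, activators and substrates above the dim filter, 1 was called higher and 1 lower (8 higher and 7 lower unadjusted), with a median of -0.0061. Both calls were B subunits of PP2A, which direct the enzyme to its substrates. None of 16 dimmer probe sets of these 71 genes was called in limma, the lowest adjusted p being 0.105, for Ppp4r3b, and 4 were higher and 1 lower before adjustment. Of all dimmer probe sets 9.47% were called higher and 0.0885% lower, so this count is not read as a difference from them.

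Of 10 calcineurin partners 0 passed, of which 1 was higher and 0 lower before adjustment, with fold changes of -0.12 to 0.11. Calm2, which encodes the calmodulin that activates calcineurin, had 12.94 to 13.01 in learning rats and 12.76 to 12.96 in control rats, a fold change of 0.11 (95% interval 0.036 to 0.18, limma adjusted p = 0.0941). Dnm1, a presynaptic dynamin that calcineurin dephosphorylates, had 0.041 and Rcan2, a calcineurin inhibitor, had -0.12. Rcan1, a feedback inhibitor that calcineurin signalling through NFAT induces, had -0.0055 (limma adjusted p = 0.970) and is named beside them after its value was seen. Of 18 PP1 partners 0 passed, with 2 higher and 1 lower unadjusted. The smooth muscle inhibitor Ppp1r14a had -0.23 (adjusted p = 0.0858), the nuclear regulator Ppp1r7 had 0.18, the inhibitor Ppp1r2 had -0.017 and the spine scaffold Ppp1r9b (spinophilin) had -0.0061.

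Of 23 PP2A partners Ppp2r5c rose and Ppp2r2d fell at the brightest probe set. Ppp2r5c had 9.82 to 10.24 in learning rats and 9.36 to 9.88 in control rats, a log2 fold change of 0.37 (95% interval 0.17 to 0.57, limma adjusted p = 0.0430). Ppp2r2d had 7.73 to 8.00 in learning rats and 7.98 to 8.20 in control rats, a change of -0.20 (95% interval -0.30 to -0.098, limma adjusted p = 0.0369). In both the groups overlapped. A dimmer probe set of Ppp2r5c had 8.91 to 9.17 in learning rats and 8.83 to 9.26 in control rats and was not called, with a fold change of 0.034 (95% interval -0.10 to 0.17, limma adjusted p = 0.816). At its brightest probe set Ppp2r5c stayed called when control replicate 6 or learning replicate 1 was left out, and lost its call without any other single array, at 0.32 to 0.39 with adjusted p-values of 0.0520 to 0.0881. Ppp2r2d lost it when 1 of control replicates 2 to 5, or 1 of learning replicates 1, 2, 4 and 6, was left out, at -0.21 to -0.18 with adjusted p-values of 0.0555 to 0.0758. The scaffold Ppp2r1a (-0.0032), the catalytic subunit Ppp2cb (-0.056) and the B subunit Ppp2r2c (0.43, adjusted p = 0.260) did not pass. Of 20 other serine/threonine phosphatase genes 0 passed, with 2 higher and 3 lower unadjusted, among them Ppm1l at 0.74 (95% interval 0.22 to 1.27, adjusted p = 0.110), Ppm1k at -0.31, Ppm1b at 0.014 and Ppp6r1 at -0.0075.

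**Figure D5:**
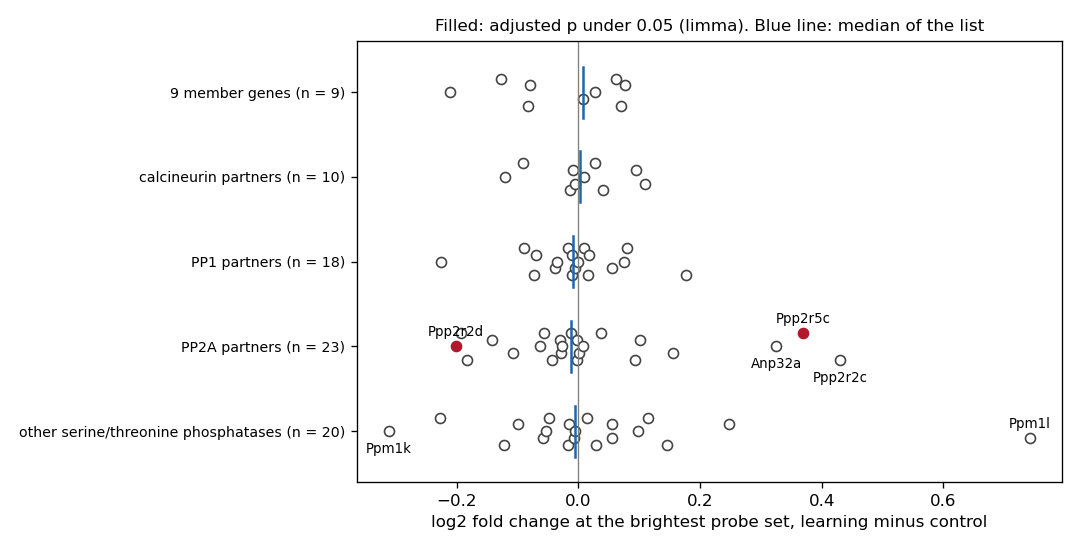
Log2 fold change, learning minus control (horizontal axis), at the brightest probe set of the 9 member genes and of 71 further genes in 4 lists, 1 point per gene. Filled points passed the adjusted threshold, the blue lines are list medians between -0.013 and 0.0074, and the named genes are those called or with a change above 0.3 in size.

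Deviations of each array from its group mean were compared between probe sets, as the root mean square distance of standardized profiles over 14 arrays, where identical profiles give 0. For Ppp3cb at 1387261_at the median distance to a tested probe set was 1.43. The nearest genes were Usp9x, a deubiquitinase (0.562), Irgq (0.593) and Tmem30a, a subunit of lipid flippases (0.633). Their own fold changes were 0.48 (adjusted p = 0.00453), -0.032 (adjusted p = 0.696) and 0.61 (adjusted p = 0.00581). For Ppp3ca at 1373479_at, with a median of 1.42, they were the growth factor Bmp6 (0.569), the Mediator subunit Med28 (0.577) and the F-box protein Fbxo11 (0.603), with changes of -0.47, -0.013 and 0.10, none of which passed. Between the catalytic genes the 4 distances were 0.701 (1368277_at of Ppp3ca and 1375882_at of Ppp3cb), 1.15, 1.48 and 1.56. The 2 probe sets of the same gene were 1.20 apart for Ppp3cb, 1.51 for Ppp3r1 and 1.56 for Ppp3ca. These distances share the arrays and their normalization and are given as a description.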

How the data were processed

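RNA from CA3 of 14 rats, 7 per group, was measured on 1 array each. The values are the authors' deposited log2 levels per probe set. GCRMA normalization is named in the submitters' processing notes, with a version not given in the sources used here. That the scale is log2 was read from the range of the values. No scanner intensities were used, so the normalization was not repeated from them. Precision is limited by the number of arrays.

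Probe sets were named from the platform annotation with symbols updated through RefSeq identifiers. After 57 control probe sets were left out, a filter at the 40th percentile of mean level (3.88) removed 6346 probe sets and left 9520. Learning minus control was fitted without a block in limma 3.58.1 (R 4.3.3) with Benjamini-Hochberg adjustment over all 9520, and a call is an adjusted p under 0.05. Differences between probe sets of a gene were fitted likewise over 1130 pairs. Single array measures were compared with two-sided exact permutation tests over 3432 assignments, without adjustment. The spike-in level averaged 9.19 ± 0.17 in learning and 8.99 ± 0.12 in control arrays (exact permutation p = 0.00524). For the beta-actin and hexokinase 3'/5' ratios the exact permutation p was 0.460 and 0.281. The code was tested on simulated data.

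The members, gene lists, marker lists and tests were chosen with earlier results of these data known. All member probe sets are named. From each partner list the genes named are those called, the 2 brightest and the 2 with the largest change, and the likeness genes are the 3 nearest profiles. The labels number the arrays as biological replicates and do not say whether animals were pooled; each is taken as 1 rat.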

Additional observations from a re-analysis of the deposited data

Results flagged for a closer look

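In 3 of 30 sets of 7 arrays, 1 array stood apart from the others by more than Dixon's critical share of the range, where chance alone gives about 1 in 20. At Ppp3ca 1373479_at control replicate 3 was highest with a log2 level of 13.36, the next being 13.26. At Ppp3cb 1375882_at learning replicate 6 was highest with 11.78, the next being 11.64. At Ppp1r1a 1386968_at control replicate 6 was lowest with 7.36, the next being 7.84. The lowest Ppp3r1 value, 8.73 in control replicate 5, came just under the critical share with 0.561.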

How the results depend on the processing

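The main count of 2 members called higher was 1 without a dim filter, with a filter at the 20th percentile, and with the spike-in or dentate marker level as covariate. It was 3 with trended variance moderation. It was 0 with the Gapdh ratio or the probe set balance as covariate, and 1 to 2 when single arrays were left out. With 1 brightest probe set per gene it was 0 as well, but that setting leaves out both called probe sets and so cannot test their calls. The count called lower was 0 to 1 with single arrays left out. Ppp3cb kept its call without each of the 14 arrays in turn (0.37 to 0.45). With the balance as covariate Ppp3r1 was -0.035, Ppp1r9b 0.021 and Ppp2r2c -0.41. The Ppp3r1 pair difference was 0.66 (adjusted p = 0.0650) without a filter, -0.13 with the balance and 0.48 to 0.73 with single arrays left out. That of Ppp3cb was 0.27 with the balance and 0.31 to 0.39 with single arrays left out. Partner calls, 2 in the main setting, were 0 with the Gapdh ratio, the balance or without 3 arrays of lowest correlation, a setting chosen after seeing the data, and 0 to 2 with single arrays left out. Calls over all probe sets were 319, against 158 without a filter, 39 with the Gapdh ratio, 177 with hexokinase, 143 with the spike-in, 171 with the dentate marker, 0 with the balance (853 unadjusted), 132 with brightest probe sets, 105 without the 3 arrays and 163 to 352 with single arrays left out. Signs turned for small changes: Ppp1cc (-0.017 with the spike-in, -0.0038 to 0.028 with single arrays left out), Ppp2r1a (0.0069 with Gapdh, 0.012 without the 3 arrays, -0.030 to 0.0095), Ppp6r1 (0.0070 with Gapdh, -0.044 to 0.012), Ppp1r9b (-0.039 to 0.016), Ppp1r2 (-0.050 to 0.014) and Ppm1b (-0.040 to 0.045). The cause of these shifts was not tested.

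Same-numbered arrays of the 2 groups correlated at -0.16 to 0.13 in their deviations, 2 of 7 pairs over 0.1. No strong shared signal was seen, but such a check cannot show whether the numbers pair the samples. With the replicate number as a block 2 members were called, Ppp3cb and Ppp3ca 1368277_at (adjusted p = 0.0409), while Ppp3r1 had an adjusted p of 0.0539 and its pair difference one of 0.0291. Of the 14 arrays 3 correlated best with their own number.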
